A study of Rattus norvegicus with 36 samples.

Results

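The 5 genes described here encode the CCN matricellular proteins measured on the arrays: Ccn1 (older symbol Cyr61), Ccn2 (Ctgf), Ccn3 (Nov), Ccn4 (Wisp1) and Ccn5 (Wisp2). They were chosen by symbol, current or older, from probe sets annotated with a single gene. Each was measured by 1 probe set, so that the family made up 5 of the 14217 genes and 5 of the 31042 probe sets used. Expression was measured in the vocal fold (VF) mucosa and in cultured VF fibroblasts of male Fischer 344 rats on 36 Affymetrix rat genome arrays. The post-injury (PI) mucosa came from rats whose VF mucosa was surgically stripped on both sides at an age of 120 days. It was harvested 3, 14 or 60 days later, at 123, 134 and 180 days of age, on 5 arrays per time point. Uninjured rats of matching age gave 3, 3 and 2 control arrays. These counts follow the sample labels. The study's methods instead give 4 PI and 3 control arrays at 60 days. Every mucosa array holds the pooled bilateral mucosae of 4 rats, so the spread between arrays is that of pools and not of single animals. The 13 culture arrays hold passage 1 explant fibroblasts of 1 rat each, grown in DMEM with 10% FBS to 80% confluence and taken at 180 days of age. Of these, 3 were scar fibroblasts that took up siRNA against gp46 (Serpinh1), and 3 were scar fibroblasts given scramble siRNA, each at 50 nM in liposomes for 1 h and followed by 24 h in new medium. The other cultures were 4 untransfected scar fibroblast cultures, from mucosa 60 days PI, and 3 naive cultures from uninjured rats.

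CCN proteins are secreted, cysteine-rich proteins of the extracellular matrix. They share a modular build of an insulin-like growth factor binding domain, a von Willebrand type C domain, a thrombospondin type 1 domain and a C-terminal cystine knot, the last of which Ccn5 lacks. They are called matricellular because they act on cells, through integrins and heparan sulfate proteoglycans and by binding growth factors, rather than as structural fibers. Ccn1 and Ccn2 are immediate-early genes of wound fibroblasts that respond to serum, TGF-β and mechanical load. The YAP and TAZ co-activators with TEAD factors, and the MRTF co-activators with SRF, are known to drive both. Ccn4 and Ccn5 were first described as Wnt1-induced genes, and Ccn3 is known in several cell types as a counterpart of Ccn2.

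All levels below are log2 RMA signals (a background-corrected, quantile-normalized summary of a gene's probes), where 1 unit is a doubling. Groups were tested with limma, p-values were adjusted by Benjamini-Hochberg over all 14217 genes, and a gene was called at an adjusted p under 0.05. The labelled tissues could be checked against marker genes. Mean levels of the 6 measured stratified epithelium markers were between 12.38 and 13.32 in mucosa, against 5.53 to 5.90 in the cultures. All 7 fibroblast markers were well expressed in the cultures, at mean levels of 13.22 to 13.72, and macrophage markers were low there at 4.56 to 5.07. The 7 skeletal muscle markers were also high in mucosa, at 11.65 to 13.31, so these samples contained muscle RNA. In the cultures they were at 7.09 to 9.45 in untransfected scar, 6.89 to 8.02 in naive and 6.22 to 6.83 in scramble cultures. The 6 measured cartilage markers ran up to 7.72 in scar, 6.35 in naive and 5.57 in scramble cultures. The part of these differences in the culture comparisons was not tested. The arrays of 3 days PI replicate 5, 14-day control replicate 3 and 60 days PI replicate 4 deviated from their groups in a shared direction (Pearson's r between their deviations across genes of 0.45 to 0.61). Without all 3, a choice made after the data were seen, the injury comparisons called 3, 1 and 0 CCN genes at 3, 14 and 60 days, as many as with them.

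The family responded to injury mainly at 3 days PI, when 3 of the 5 genes rose. Ccn4 and Ccn1 were about 4-fold higher than in age-matched controls and Ccn2 was 1.71-fold higher. Of all genes tested, 26.6% were called at this time point, and 14.6% were called higher. All 5 arrays of injured mucosa were above all 3 controls for these same genes, a pattern found in 17.7% of all genes. At 14 days PI only Ccn5 was called, 1.85-fold higher, and at 60 days PI none was.

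Ccn1, which supports cell adhesion, migration and angiogenesis, is the family member best known as an early response to wounding. Its level was 10.45, 10.35, 10.48, 10.58 and 10.07 on the 5 arrays at 3 days PI, against 8.36, 8.54 and 8.28 in the 3 controls. The injured and control arrays were far apart, with 3 days PI replicate 5 the lowest of the injured arrays. The mean was 10.39 ± 0.19 at 3 days PI (SD, n = 5) and 8.40 ± 0.13 in controls (SD, n = 3). This is a log2 fold change of 1.99 ± 0.21 (SE) or 3.98-fold, with an adjusted p of 3.06e-07 in limma.

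Ccn2, known for its role in fibrosis downstream of TGF-β, was already abundant in uninjured mucosa and its rise was smaller. The 3 days PI arrays read 12.67, 12.58, 12.51, 12.84 and 12.58, and the controls 11.91, 12.02 and 11.65. The groups did not overlap, and the lowest injured array was above the highest control. The log2 fold change was 0.78 ± 0.17 (SE), or 1.71-fold, with an adjusted p of 0.00175 in limma.

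The promoters of these 2 genes are shown because both are textbook targets of TEAD factors, and the letters of the TEAD core motif can be read in them. The stretches are the 250 bases before the RefSeq start of each gene (rat build GRCr8, both on the minus strand, read 5′ to 3′ in the direction of the gene). Ccn1 lies at chr2:237225690-237225939 and Ccn2 at chr1:22624615-22624864. Capitals mark GGAATG, or CATTCC where the motif is on the opposite strand.
Ccn1: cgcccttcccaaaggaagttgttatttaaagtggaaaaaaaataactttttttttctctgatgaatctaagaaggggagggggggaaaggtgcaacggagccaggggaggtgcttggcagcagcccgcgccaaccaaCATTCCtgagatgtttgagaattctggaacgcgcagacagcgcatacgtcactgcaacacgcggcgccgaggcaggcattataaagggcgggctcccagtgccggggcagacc
Ccn2: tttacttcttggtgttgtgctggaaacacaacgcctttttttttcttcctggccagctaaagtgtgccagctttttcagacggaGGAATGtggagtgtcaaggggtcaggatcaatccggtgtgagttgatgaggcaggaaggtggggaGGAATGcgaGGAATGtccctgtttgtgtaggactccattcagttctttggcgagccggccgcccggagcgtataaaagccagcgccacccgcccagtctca
The Ccn1 promoter holds 1 match, 113 bases before the start and on the opposite strand. The Ccn2 promoter holds 3 matches, all on the strand of the gene, which begin 166, 101 and 92 bases before the start. Of 33469 rat promoters of RefSeq, read on both strands over 250 bases before to 50 bases after the start, 14.2% hold GGAATG at least once and 1.24% hold it 2 or more times. The SRF motif known as the CArG box was not in either window and is in 1.64% of promoters. A TATAAA box, read on the strand of the gene, begins 34 bases before the start of Ccn1 and 31 bases before that of Ccn2. Only these 2 of the 5 genes were matched in the promoter table. Such matches describe the letters of the sequence and no binding was measured.

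Ccn4, a Wnt1-induced member found in healing bone and in fibroblasts, changed about as much as Ccn1 in injured mucosa. Its 5 arrays at 3 days PI were tightly grouped at 7.96, 8.04, 7.90, 8.10 and 8.01, against 5.95, 5.87 and 6.12 in the controls. The groups were far apart beside their spread. Over the 23 mucosa arrays, between 28.4% and 61.2% of all probe sets were at or below Ccn4, a low to middling signal, and fold changes of low RMA signals tend to be compressed. The log2 fold change was 2.02 ± 0.11 (SE), or 4.06-fold, with an adjusted p of 6.68e-11 in limma.

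Ccn3 and Ccn5 were higher in injured mucosa on average at 3 days, but the groups overlapped and neither passed the test. Ccn3, an antiproliferative member in many cells, read 9.31, 9.62, 9.03, 9.24 and 9.06 at 3 days PI, against 8.58, 8.86 and 9.04 in controls. Its log2 fold change was 0.43 ± 0.19 (SE) with an adjusted p of 0.11 in limma. Ccn5, which inhibits smooth muscle cell proliferation, read 10.02, 10.29, 9.84, 10.00 and 10.05 at 3 days PI, against 9.24, 9.87 and 9.73 in controls. The lowest injured array of each gene was thus just inside the range of its controls. For Ccn5 the log2 fold change was 0.43 ± 0.18 (SE) with an adjusted p of 0.0937 in limma. Both genes passed when the 8 controls of all ages were pooled, with adjusted p-values of 0.00575 for Ccn3 and 0.0032 for Ccn5 in limma. Ccn5 also passed with array weights (0.0146) and without 60 days PI replicate 4 (0.037).

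**Figure D1:**
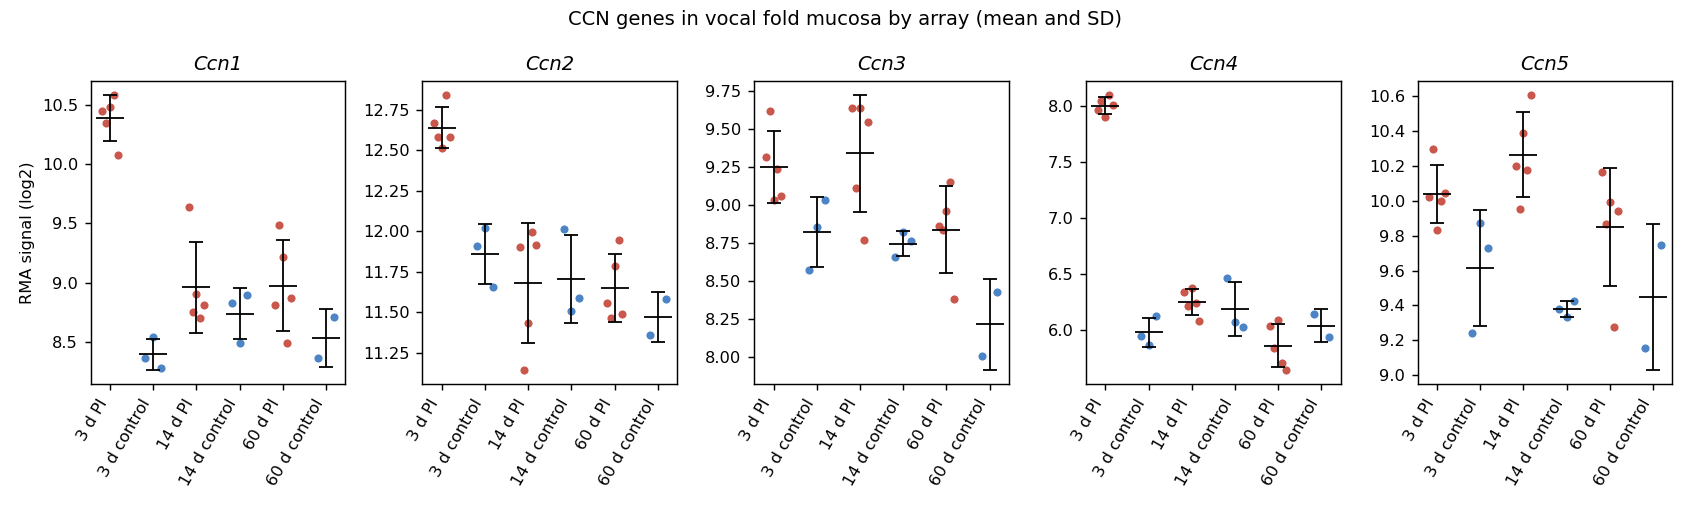
Log2 RMA signal of each CCN gene (vertical axis, its own range per panel) on each of the 23 mucosa arrays, with PI groups in red and age-matched controls in blue. Bars give each group's mean and SD, and Ccn1, Ccn2 and Ccn4 at 3 days PI stand above the other mucosa arrays, while Ccn5 at 14 days PI (9.96 to 10.61) lies above its controls (9.33 to 9.43).

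Markers of several cell types differed at the same time. Their counts stand beside the 26.6% of all genes called at 3 days PI, with 14.6% called higher and the rest lower. Whether these short lists exceeded those shares was not tested. At 3 days PI, 5 of the 7 fibroblast markers were called higher and none lower, and the mean level of the list was 13.06 to 13.22 in injured mucosa, against 12.22 to 12.42 in controls. Of the 4 neutrophil markers 3 were called higher (6.29 to 8.32 in injured mucosa, against 5.67 to 6.29 in controls), and of the 4 ciliated epithelium markers measured 3 were called higher (8.90 to 9.63, against 8.09 to 8.38). Of the 7 skeletal muscle markers 4 were called lower (11.65 to 12.45, against 11.95 to 12.76), as were all 3 Schwann cell markers measured (7.22 to 7.72, against 8.14 to 8.83). In pooled tissue, more cells of a type and more RNA per cell cannot be told apart. The part of these differences in the rise of Ccn1, Ccn2 and Ccn4 was not tested.

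At 14 days PI, Ccn1, Ccn2 and Ccn4 were no longer separated from their controls. Ccn1 read 9.63, 8.75, 8.90, 8.70 and 8.81 in injured mucosa, against 8.83, 8.49 and 8.89 in controls, with replicate 1 alone standing well above the others. Its log2 fold change was 0.22 with a 95% confidence interval of -0.21 to 0.65. Ccn2 spanned 11.14 to 11.99 in injured mucosa, against 11.51 to 12.01 in controls, with a log2 fold change of -0.02 (interval -0.38 to 0.33). Ccn4 spanned 6.08 to 6.38 in injured mucosa, against 6.03 to 6.46 in controls, with a log2 fold change of 0.06 (interval -0.17 to 0.30). These intervals leave room for changes of well under a doubling and exclude effects of the size seen in Ccn1 and Ccn4 at 3 days.

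Ccn5 had its clearest difference at 14 days PI. It read 10.20, 9.96, 10.39, 10.17 and 10.61 in injured mucosa, against 9.38, 9.33 and 9.43 in controls. Every injured array was above every control, and the controls differed among themselves by less than 0.1. The mean was 10.27 ± 0.25 at 14 days PI (SD, n = 5) and 9.38 ± 0.05 in controls (SD, n = 3), a log2 fold change of 0.88 ± 0.18 (SE) or 1.85-fold, with an adjusted p of 0.00932 in limma. Of all genes 3.03% were called at 14 days, 2.08% were called higher, and 7.94% had all injured arrays above all controls. Fibroblast markers were again higher, with 3 of 7 called and a mean level of 12.48 to 12.81 in injured mucosa, against 12.24 to 12.37 in controls, and 3 of 4 ciliated epithelium markers were called higher. Their part in the Ccn5 result was not tested.

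Ccn3 moved in the same direction at 14 days without passing the test. It read 9.64, 9.11, 9.64, 8.77 and 9.55 in injured mucosa, against 8.66, 8.82 and 8.76 in controls, so that only replicate 4 fell among the controls. The log2 fold change was 0.59 ± 0.19 (SE), 1.51-fold, with an unadjusted p of 0.00602 and an adjusted p of 0.109 in limma. Without that replicate the log2 fold change was 0.74 with an adjusted p of 0.0264 in limma, and with the replicate number as a block it was 0.71 with an adjusted p of 0.0498.

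At 60 days PI, when the injured mucosa is in its remodeling phase, no CCN gene was called. Only 0.0563% of all genes were, and the comparison rests on 2 control arrays by the labels. The study's methods count fewer PI and more control arrays at 60 days. Which count is right is not known, so 1 array may stand in the wrong group here. Ccn3 read 8.86, 8.83, 8.96, 9.15 and 8.38 in injured mucosa at 60 days, against 8.004 and 8.43 in controls, where replicate 5 fell among the controls. Its log2 fold change was 0.62 with an interval of 0.16 to 1.09, an unadjusted p of 0.0108 and an adjusted p of 0.37 in limma. These 2 controls were themselves low for Ccn3, at -0.57 log2 units against the 3- and 14-day controls (unadjusted p of 0.016, adjusted p of 0.473 in limma), and with the controls of all ages pooled the difference was 0.20. Ccn1 spanned 8.49 to 9.48 in injured mucosa, against 8.36 and 8.71 in controls, and Ccn5 spanned 9.28 to 10.16, against 9.15 and 9.75. Their log2 fold changes were 0.44 (interval -0.05 to 0.93) and 0.40 (interval -0.04 to 0.84). Without 60-day control replicate 1 they were 0.27 and 0.10, and without 60-day control replicate 2 they were 0.615 and 0.695. Ccn2 and Ccn4 differed least, at 0.18 (interval -0.23 to 0.59) and -0.18 (interval -0.45 to 0.09). All 5 genes overlapped between injured and control arrays, where 12.4% of all genes did not.

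**Figure D2:**
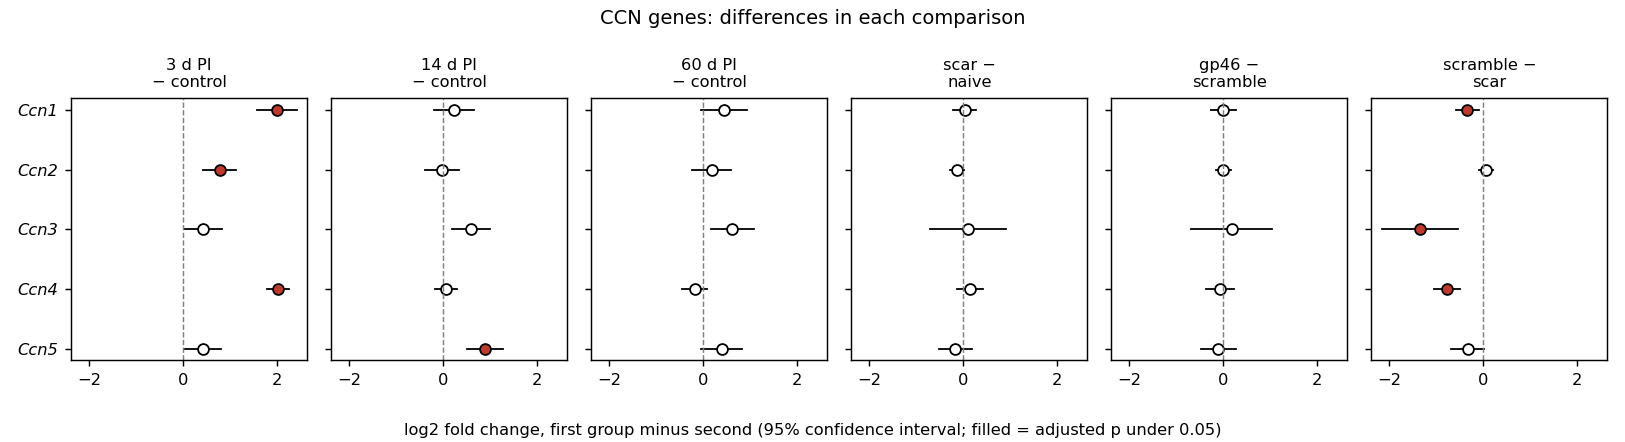
Log2 fold change of each CCN gene (points) with its 95% confidence interval (lines) in 6 comparisons, each as the first named group minus the second, with filled points for an adjusted p under 0.05 in limma. Filled points are Ccn1, Ccn2 and Ccn4 at 3 days PI, Ccn5 at 14 days PI, and Ccn1, Ccn3 and Ccn4 in scramble siRNA against untransfected scar fibroblasts.

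Whether the injury effect itself differed between time points was tested directly, each time point against its own controls. The effects of Ccn1 and Ccn4 were larger at 3 days than at 14 days, by 1.77 ± 0.29 and 1.96 ± 0.16 log2 units (SE), with adjusted p-values of 0.000456 and 1.59e-07 in limma. They were also larger at 3 days than at 60 days, by 1.55 ± 0.31 and 2.20 ± 0.17 log2 units, with adjusted p-values of 0.00206 and 4.75e-08. For Ccn2 the difference between the 3-day and the 60-day effect, 0.60 ± 0.26 log2 units, was not called (adjusted p of 0.137). Its effect at 3 days exceeded that at 14 days by 0.80 ± 0.24 log2 units with an adjusted p of 0.044, a call that did not survive the removal of single arrays. It was lost without 3 days PI replicate 1, 2, 3 or 4, 3-day control replicate 1 or 3, 14 days PI replicate 2 or 3, 14-day control replicate 1 or 3, 60 days PI replicate 1 or 5, or either 60-day control, with adjusted p-values up to 0.151 (without 14-day control replicate 1). For Ccn5 the difference between the 3-day and the 14-day effect was -0.46 ± 0.26 log2 units with an adjusted p of 0.335 in limma, so its later peak was not separated from its 3-day value. Among all genes, 8.01% were called between 3 and 14 days and 13.5% between 3 and 60 days. Between 14 and 60 days none of the 5 was called, and 0.0774% of all genes were.

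Across the PI groups alone, the early trio fell together. From 3 to 14 days PI the log2 changes were -1.43 for Ccn1, -0.96 for Ccn2 and -1.75 for Ccn4, with adjusted p-values of 3.2e-06, 3.97e-05 and 6.73e-11 in limma. In all 3 genes every array at 14 days PI was below every array at 3 days PI, as in 15.6% of all genes, and 34.2% of all genes were called between these groups. Marker genes moved over the same interval. Of the fibroblast markers 5 of 7 were called lower and none higher (12.48 to 12.81 at 14 days PI, against 13.06 to 13.22 at 3 days PI), as were all 5 macrophage markers (9.47 to 9.87, against 10.14 to 10.75) and all 4 neutrophil markers (5.73 to 6.43, against 6.29 to 8.32). Of the skeletal muscle markers 6 of 7 were called higher (12.65 to 13.15, against 11.65 to 12.45). Their part in the fall of the 3 CCN genes was not tested. Ccn3 and Ccn5 did not follow: their log2 changes of 0.09 (interval -0.26 to 0.44) and 0.22 (interval -0.11 to 0.56) were not called. From 14 to 60 days PI, Ccn4 fell by a further 0.39 on the log2 scale with an adjusted p of 0.0368, while 2.10% of all genes were called. Of the 7 fibroblast markers 3 were called lower and none higher between these groups, with a median of -0.66 (11.81 to 12.12 at 60 days PI, against 12.48 to 12.81 at 14 days PI), and their part was not tested. The Ccn4 call did not hold without 14 days PI replicate 1, 2, 3 or 4 or 60 days PI replicate 2, 4 or 5 (adjusted p up to 0.125, without the last of these), nor without the 3 deviating arrays (0.0581). In a test of any change over the 3 PI groups, Ccn1, Ccn2, Ccn3 and Ccn4 were called (adjusted p of 1.38e-06, 1.59e-05, 0.0431 and 1.74e-12), as were 38.5% of all genes. The call of Ccn3 was lost without 3 days PI replicate 1, 2 or 4, 3-day control replicate 2, 14 days PI replicate 1, 3 or 5, any 14-day control, or 60 days PI replicate 1, 2, 3 or 5 (adjusted p up to 0.155, without the last of these). Over the 3 control groups none of the 5 genes was called, with adjusted p-values of 0.738 to 1, and 0.0141% of all genes were.

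The courses of the genes in mucosa can also be described by their correlations. Over the 23 mucosa arrays, Pearson's r was 0.89 between Ccn1 and Ccn4, 0.85 between Ccn2 and Ccn4 and 0.78 between Ccn1 and Ccn2. Between Ccn3 and Ccn5 it was 0.68, and between Ccn2 and Ccn5 only 0.23. The arrays share the group differences described above, so these values restate them and carry no test.

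Each gene had other genes with a similar course, ranked by r over the 23 mucosa arrays. Closest to Ccn4 were Fzd2, a Wnt receptor (0.98), Lrrc15, a membrane protein of matrix-producing fibroblasts (0.98), and Gatm, an enzyme of creatine synthesis (0.98). Lrrc15 averaged 9.43 ± 0.20 at 3 days PI, against 5.89 ± 0.10 in its controls, and was between 5.78 and 6.18 in all later groups. Closest to Ccn1 were Tk1 and Knstrn, genes of DNA synthesis and mitosis (0.94 and 0.93), and Draxin (0.92). Closest to Ccn2 were Spsb1 (0.90), the collagen-modifying enzyme Plod3 (0.89) and Zfp354c (0.89). Matrix genes were among those most like the other members. Ccn5 was closest to Dpt, the matrix protein dermatopontin (0.89), followed by Etfbkmt (0.82) and Wdr54 (0.82). Dpt averaged 12.43 ± 0.09 at 14 days PI, against 11.52 ± 0.17 in its controls. Ccn3 was closest to Dact1, a regulator of Wnt signaling (0.85), Ccdc80, a secreted matrix protein (0.82), and Pcdh18 (0.78).

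The proteins that receive CCN signals were measured alongside. Of 24 measured receptors and binding partners, 4 rose and 5 fell at 3 days PI, with a median log2 fold change of 0.05, beside 0.01 over all genes. Of all genes 26.6% were called and 14.6% rose at this time, so the share of the list that rose was near that of all genes. Integrin subunits Itgb3, by 1.19 (adjusted p of 3.29e-06), and Itga5, by 1.13 (8.43e-05), were among those that rose, while the growth factors Bmp4 and Vegfa fell by 0.98 and 0.69 on the log2 scale (6.95e-05 and 0.00035 in limma). At 14 days PI 1 of the 24 was called, Itgb2, which fell by 0.94 (adjusted p of 0.041), near the 3.03% of all genes called then, and at 60 days none.

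Of 15 other matricellular genes measured, 7 rose and 2 fell at 3 days PI, with a median of 0.48. Of all genes 26.6% were called at this time and 14.6% rose. Tnc, tenascin C of the provisional matrix, rose by 5.64, and Tnn by 5.34 (adjusted p of 2.1e-12 and 1.52e-11). Thbs2 and Postn, which take part in collagen fibril assembly, rose by 2.59 and 1.92 (2.21e-10 and 8.93e-10 in limma). At 14 days PI 3 of the 15 were called higher, among them Postn by 1.27 and Thbs2 by 1.21, and Spock1 fell by 0.90. Of all genes 3.03% were called then and 2.08% were called higher.

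Targets of the MRTF co-activators and SRF, which build the contractile actin cytoskeleton, moved mostly upward at 3 days PI. Of 19 measured, 11 rose and none fell, with a median of 0.60. Tagln, an actin-binding protein, rose by 1.58 (adjusted p of 1.35e-06), the tropomyosins Tpm1 and Tpm2 by 0.98 and 1.01, and Tgfb1i1 by 0.92. The targets of YAP and TAZ other than the CCN genes were more mixed, with 6 of 19 higher, 1 lower and a median of 0.16. Ankrd1 was the largest of these at 3.30 (3.48e-08), F3, the initiator of coagulation, rose by 0.52, and Rbms3 fell by 0.93. Of 18 measured components of the Hippo pathway itself, 4 rose and 1 fell, a share near the 26.6% of all genes called at 3 days, with Wwtr1, the gene of TAZ, higher by 0.82 (1.43e-05), Tead2 higher by 0.67 and Wwc1 lower, at -1.14. In the list of TGF-β ligands and early targets 6 of 16 rose and none fell, with Tgfbi, also a matricellular gene, at 1.00 (4.73e-07) and Tgif1 at 0.65. Among 13 measured Wnt targets none rose and 2 fell, Apcdd1 by 0.71 and Bambi by 0.59. The share of this list that fell was near that of all genes. At 14 days PI the MRTF, Hippo and TGF-β lists had no member called, where 3.03% of all genes were. Of the YAP and TAZ targets, Ccdc80 and Ankrd1 were higher by 0.73 and 1.17 and Igfbp3 fell by 0.80. Lgr5 was the only Wnt target called, at 0.86, and at 60 days no member of any list was called.

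**Figure D3:**
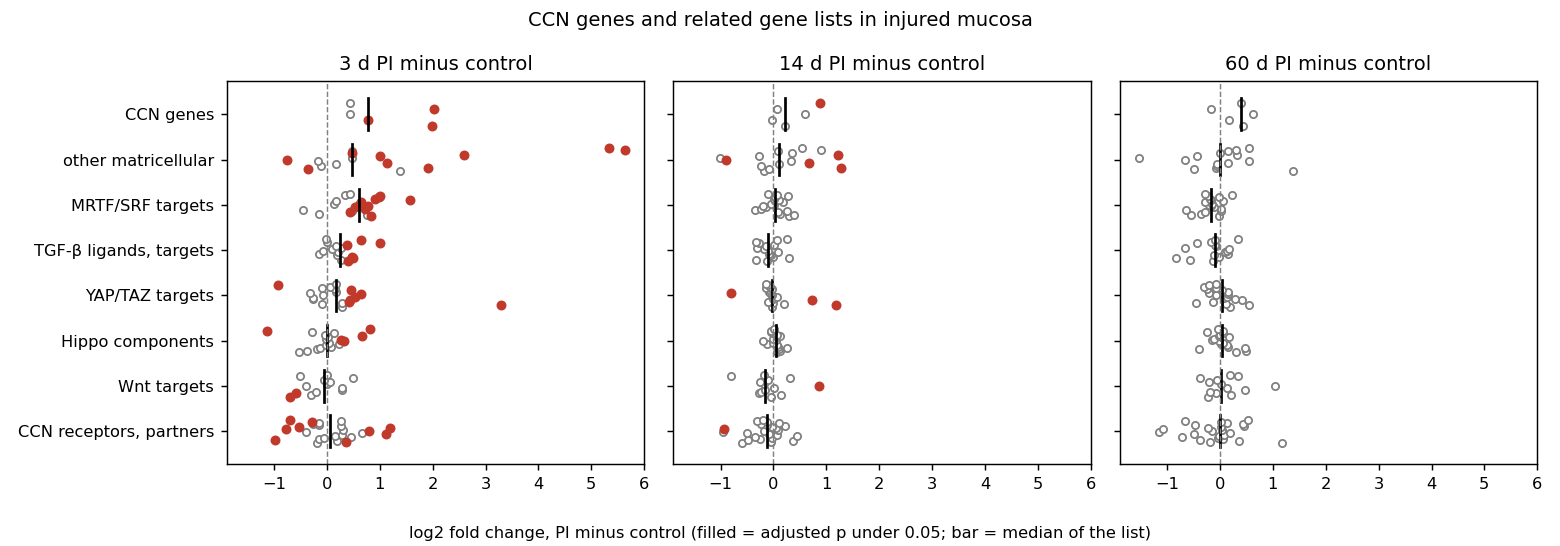
Log2 fold change (horizontal axis, PI minus age-matched control) of each measured gene of the CCN family and of 7 related gene lists at 3, 14 and 60 days, with filled points for an adjusted p under 0.05 in limma and a bar at the median of each list. At 3 days the medians are 0.78 for the CCN genes, 0.60 for MRTF and SRF targets and 0.48 for other matricellular genes, and at 60 days no point is filled.

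In cultured fibroblasts the CCN genes were far more abundant than in mucosa. Naive fibroblasts exceeded uninjured mucosa 28.8-fold for Ccn1, 7.05-fold for Ccn2, 9.48-fold for Ccn3, 23.2-fold for Ccn4 and 14.4-fold for Ccn5, with adjusted p-values of at most 1.32e-12 in limma. All 3 naive cultures were above all 8 control mucosa arrays for every gene, as in 39.2% of all genes. Ccn2 reached 14.26 to 14.51 on the 13 culture arrays, where it ranked between the 5th and the 19th highest probe set, so little room was left above it. This comparison is background to the culture results rather than a contrast of the study. Of all genes 71.6% were called in it and 42.6% were called higher, culture and cell composition cannot be told apart in it, and less RNA was labelled for cultures (0.9 µg) than for mucosa (1.2 µg).

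Scar fibroblasts did not differ detectably from naive ones in any CCN gene, where 5.47% of all genes were called. Ccn1 read 13.31, 13.44, 13.43 and 13.54 in scar cultures, against 13.60, 13.39 and 13.22 in naive cultures, with a log2 fold change of 0.03 (interval -0.22 to 0.27). Ccn2 read 14.26, 14.28, 14.36 and 14.51 in scar cultures, against 14.46, 14.51 and 14.51 in naive ones, with a log2 fold change of -0.14 (interval -0.29 to 0.01). For Ccn4 the log2 fold change was 0.15 (interval -0.13 to 0.42) and for Ccn5 it was -0.17 (interval -0.51 to 0.18). Ccn3 varied most between rats, at 11.67, 11.08, 12.13 and 12.92 in scar cultures, against 11.52, 12.45 and 11.55 in naive cultures. Its log2 fold change of 0.11 had an interval of -0.70 to 0.92, which does not exclude a change of over 1.5-fold in either direction. Adjusted p-values in limma were 0.924, 0.267, 0.91, 0.561 and 0.608 for Ccn1 to Ccn5. The MRTF and SRF list did move here: 7 of its 19 genes rose and none fell, with a median of 0.43 beside 0.02 over all genes. One of those that rose was Mrtfa itself, by 0.50. Cnn1, a smooth muscle calponin, rose by 1.86 (adjusted p of 0.00252), Myl9, the regulatory myosin light chain, by 0.82, Vcl by 0.46 and Tgfb1i1 by 0.44. Tgfbi was the only called gene of the TGF-β list and of the matricellular list, at 2.12 (0.00464). No Hippo component, YAP or TAZ target, Wnt target or receptor was called. Smooth muscle and pericyte markers, a list that shares Cnn1 and Acta2 with the MRTF and SRF list, had 2 of 5 called higher. Their mean levels were 9.46 to 10.64 in scar cultures, against 8.68 to 9.28 in naive cultures, and their part was not tested.

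Serpinh1 itself, a collagen chaperone of the endoplasmic reticulum, checks the knockdown. It read 12.43, 12.64 and 12.67 under gp46 siRNA, against 12.98, 12.96 and 12.93 under scramble siRNA. Every gp46 culture was below every scramble culture, 1.30-fold on average, with an unadjusted p of 0.00255 and an adjusted p of 1 in limma. Under scramble siRNA Serpinh1 was already 1.34-fold lower than in untransfected scar cultures (adjusted p of 0.00484 in limma), a difference about as large as that between gp46 and scramble siRNA.

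No CCN gene was called between gp46 and scramble siRNA. The limma fit compared group means and did not pair same-numbered cultures, and in it 0.00% of all genes were called. With the replicate number as a block no CCN gene was called either. An unadjusted p under 0.05 was found in 299 of the 14217 genes, fewer than the 5% that would pass with no change. Where cultures are paired, an unpaired fit can make this number too low. A lognormal-normal model, also unpaired, called 7. Ccn1 read 13.13, 13.10 and 13.06 under gp46 siRNA, against 13.17, 13.26 and 12.84 under scramble siRNA. Ccn2 read 14.40, 14.46 and 14.39, against 14.43, 14.36 and 14.45. Both had a log2 fold change of 0.005, with intervals of -0.26 to 0.27 and -0.16 to 0.17. Ccn3 read 10.53, 11.11 and 10.71 under gp46 siRNA, against 10.51, 10.40 and 10.90 under scramble siRNA, a log2 fold change of 0.18 (interval -0.69 to 1.05). Ccn4 (-0.07, interval -0.37 to 0.23) and Ccn5 (-0.10, interval -0.48 to 0.27) overlapped as well. None of the 7 gene lists had a member called.

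The transfected cultures nevertheless stood apart from untransfected scar fibroblasts. Under scramble siRNA, Ccn3, Ccn4 and Ccn1 were lower than in untransfected scar cultures, by 2.55-, 1.71- and 1.27-fold. Of all genes 13.6% were called lower and 16.5% higher, and 15.7% had all scramble cultures below all scar cultures, as these 3 genes had. Ccn4 read 9.79, 10.08 and 10.06 under scramble siRNA, against 10.94, 10.70, 10.77 and 10.59 in untransfected scar cultures. The log2 fold change was -0.77 ± 0.13 (SE) with an adjusted p of 0.000818 in limma. Ccn3, at 10.51, 10.40 and 10.90 against the scar values given above, had a log2 fold change of -1.35 ± 0.37 (SE) and an adjusted p of 0.017. That call was lost without scramble replicate 1 (0.0553) or replicate 2 (0.0567). For Ccn1 the log2 fold change was -0.34 ± 0.11 (SE) with an adjusted p of 0.0376, which was lost without scramble replicate 1 or 3, scar replicate 2, 3 or 4, gp46 replicate 2 or naive replicate 2 (up to 0.165, without scramble replicate 3). Ccn5 was -0.34 ± 0.16 (SE) with an adjusted p of 0.136, and 0.0425 without scar replicate 1. Ccn2 had a log2 fold change of 0.06 with an interval of -0.09 to 0.21. The same 4 scar cultures enter this comparison and the one with naive cultures.

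The related gene lists were also measured in the scramble cultures. Their counts stand beside the 13.6% of all genes called lower and 16.5% called higher in this comparison. Of the 19 genes of the MRTF and SRF list 13 fell, Mrtfa itself among them, and 1 rose, with a median of -0.55 beside -0.01 over all genes. Acta2, the smooth muscle actin of myofibroblasts, fell by 2.56 on the log2 scale (adjusted p of 3.74e-05), and the immediate-early genes Egr1 and Egr2 fell by 1.24 and 1.90. Zyx, a focal adhesion protein, fell by 0.84. Of the YAP and TAZ targets 6 fell and 2 rose, with Igfbp3 at -3.15 and F3 at -1.16. In the TGF-β list 5 fell and 1 rose, with Tgfb3 at -1.24, and of the Hippo components 5 fell and 2 rose, with Stk4 at -0.95 and Amot at -0.70. Of the 24 receptors and partners 4 fell, including Igf1 at -1.71 and Vegfa at -1.27, and none rose. The share of this list that fell was near that of all genes. Among the matricellular genes 3 fell, with Fbln5 at -1.10, and among the Wnt targets Nkd2 and Wif1 fell by 1.53 and 1.34 and Ccnd1, a cyclin of cell cycle entry, rose by 1.90. Liposome, siRNA, fresh medium and the added day of culture cannot be told apart in this comparison. The labels do not say whether the scramble and the untransfected scar cultures came from the same rats. Rat of origin therefore cannot be told apart from these either. Smooth muscle and pericyte markers were lower too, at 7.96 to 8.69 under scramble siRNA, against 9.46 to 10.64 in scar cultures, with 3 of 5 called, and 4 of 7 fibroblast markers were called lower, which were not tested as part of the result.

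Over the 13 culture arrays the genes most like each member again differed between members. Ccn4 was closest to Lamb2, a laminin chain (0.97), Stk25 (0.97) and Coq8b (0.96), and Ccn3 to Dpep1 (0.96), Gadd45g (0.95) and Scp2 (0.95). Ccn1 was closest to Thyn1 (0.92), Trafd1 (0.91) and Slc25a22 (0.91), Ccn2 to Gabre (0.93), Isl1 (0.91) and Antxr1 (0.90), and Ccn5 to Dcxr (0.95), Slc9a8 (0.93) and Washc3 (0.93). Within the family, Ccn1, Ccn3, Ccn4 and Ccn5 correlated with one another at 0.63 to 0.75, while Ccn2, which varied little, ranged from -0.21 to 0.35. The split between the transfected and the other cultures runs through these values, which carry no test.

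**Figure D4:**
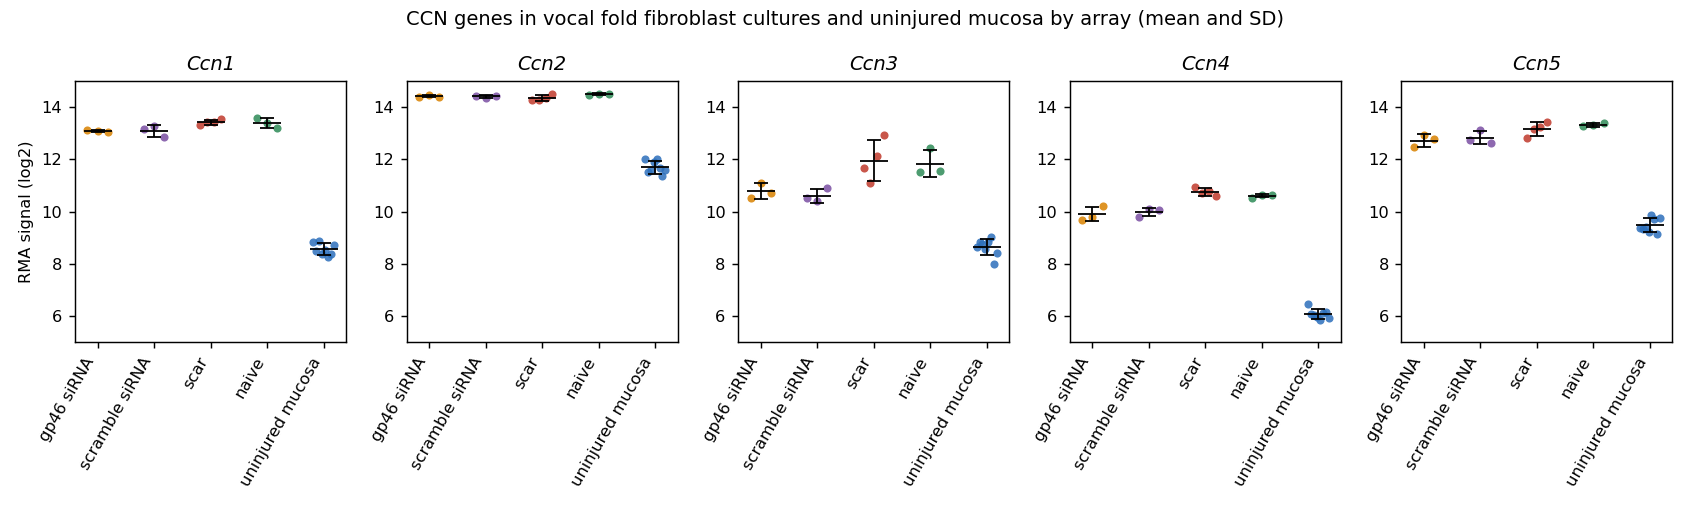
Log2 RMA signal (vertical axis) of each CCN gene in the 13 fibroblast cultures by group and in the 8 uninjured mucosa arrays, where bars give each group's mean and SD. Under scramble siRNA Ccn3 and Ccn4 lie below the untransfected scar cultures, and all culture arrays lie above the uninjured mucosa.

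Taking all groups by level, each gene had the same broad order, with cultures above mucosa. For Ccn1 the 4 culture groups averaged 13.09 to 13.43, followed by 3 days PI at 10.39, and the remaining mucosa groups lay between 8.40 and 8.97 with SDs of 0.13 to 0.39, so neighbors among them did not differ beyond their spread. Ccn4 averaged 9.91 to 10.75 in cultures and 8.001 at 3 days PI, and 5.86 to 6.25 in the remaining mucosa groups. Ccn2 averaged 14.35 to 14.50 in cultures, 12.64 at 3 days PI and 11.47 to 11.86 elsewhere. Ccn3 averaged 11.95 in scar and 11.84 in naive cultures, 10.78 under gp46 siRNA and 10.60 under scramble siRNA, 9.34 at 14 days PI, 9.25 at 3 days PI, and 8.22 to 8.84 in the other mucosa groups. Ccn5 averaged 12.72 to 13.32 in cultures, and its 6 mucosa groups ran from 9.38 to 10.27 with no gap wider than their spread between neighbors.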

How the data were processed

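Total RNA of 36 samples was hybridized to Affymetrix arrays. The values used are log2 signals deposited by the authors, who summarized probes by RMA (RMA and affy are named in the submitters' processing notes). Once sorted, the signals of any 2 arrays were within 0.03 of each other, so mucosa and cultures were normalized together, and a shift shared by most genes would be hidden. Probe sets with 1 symbol (20826 of 31042, after removal of 57 control probe sets) stood for 14217 genes. Where a gene had several, the one with the median mean intensity was used.

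limma 3.58.1 in R 4.3.3 was fitted to the 23 mucosa arrays (6 groups), to the 13 culture arrays (4 groups) and, for cultures against mucosa, to all 36, with Benjamini-Hochberg adjustment over all genes. Plots were made in Python 3.11.15 (matplotlib 3.10.9). The EBarrays model that the study names was replaced by limma, with an implementation of its lognormal-normal model (20 EM iterations, posterior probability over 0.95) as an alternative. The scripts were tested on simulated data. Other alternatives covered normalization, filtering, array weights, variance model, pooled controls, probe set choice, the replicate number as a block, and each array left out in turn. The study's methods and the labels differ in the number of 60-day arrays of each kind, and the labels were followed. Replicates are separate pools or rats by their labels.

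The CCN genes, the related lists and the tests were chosen with earlier results of these data known. Genes were named by rule: all CCN genes, the 3 genes most correlated with each, up to 4 called members of each list with the smallest adjusted p, and Serpinh1. The MRTF and SRF list also holds Mrtfa and Srf, the genes of such factors, beside their targets. Mrtfa was named outside the rule. Replicate numbers were checked for pairing by Pearson's r between the deviations of same-numbered arrays. For the gp46 and scramble cultures r was 0.43, 0.18 and 0.47, and these were taken as paired. The replicate block uses this pairing, while the main fit, which gave the gp46 results above, does not. For injured and control mucosa r was -0.13 to 0.31. For scar and naive cultures it was 0.10 to 0.14, with the lowest just under 0.1. Neither of these was taken as paired.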

Additional observations from a re-analysis of the deposited data

Results flagged for a closer look

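In Ccn1 at 14 days PI, replicate 1 read 9.633 while the next highest array read 8.899, a gap that took up 0.788 of the range of the 5 arrays and exceeded Dixon's critical value of 0.71. It was the only such array in 20 groups of 4 or more arrays tested, and chance gives about 1 in 20.

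The injury effects of Ccn1, Ccn2 and Ccn4 differed between time points in limma. Against 14 days, the 3-day effect was larger by 1.769 for Ccn1, 0.802 for Ccn2 and 1.957 for Ccn4 on the log2 scale. Against 60 days it was larger by 1.549 for Ccn1 and 2.199 for Ccn4, while for Ccn2 the difference of 0.599 was not called (adjusted p of 0.137 in limma). The call of Ccn2 between 3 and 14 days held in 16 of 32 alternatives.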

How the results depend on the processing

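No result changed direction among those called. Ccn1, Ccn2 and Ccn4 at 3 days PI and Ccn5 at 14 days PI kept their calls under all 35 alternatives each, with log2 fold changes of 1.83 to 2.15, 0.68 to 0.94, 1.90 to 2.09 and 0.78 to 0.96, and all 5 genes kept theirs between naive cultures and mucosa under 44. The Ccn5 call at 14 days came to the threshold when single arrays were left out, with an adjusted p in limma of up to 0.05 after rounding. The count of called CCN genes at 14 days, 1 as reported, was 2 with array weights, with pooled controls and with the replicate block, since Ccn3 passed as well (adjusted p in limma of 0.00322, 0.0129 and 0.0498), and ran from 1 to 2 when single arrays were left out (2 without 14 days PI replicate 4). At 3 days it was 5 with pooled controls, across the control groups 1 with array weights (Ccn3, 0.0449), and in scramble against scar cultures 1 with the lognormal-normal model (Ccn4) and 1 to 4 when single arrays were left out (1 without scramble replicate 1). The replicate block, which pairs the gp46 and scramble cultures, changed no other call. Apart from these counts, 375 count values stayed within 1.5 times the reported count, and of the values of single genes 2166 kept their call, 53 lost it and 16 gained it. The lost calls in mucosa were those of Ccn2 between 3 and 14 days, Ccn3 across the PI groups and Ccn4 between 14 and 60 days PI. With arrays centred on their median these 3 were lost, with adjusted p-values of 0.0523, 0.0748 and 0.0525 in limma. Quantile normalization within mucosa lost those of Ccn2 (0.0513) and Ccn3 (0.0691). In cultures the lost calls were those of Ccn1 and Ccn3 in scramble against scar cultures. The causes were not tested. The number of arrays, above all 2 controls at 60 days, limits the precision, and Ccn2 in cultures lies near the top of the scale, where differences are compressed. Where 1 of the 2 was left out, the other was assumed to vary like the other groups.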
